A study of Mus musculus with 12 samples.

Results

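The 10 genes described here encode receptors that guide myeloid cells along gradients of attractant: the formyl peptide receptors Fpr1 and Fpr2, the chemokine receptors Cxcr2, Cxcr4, Ccr1, Ccr2 and Cx3cr1, the complement receptor C5ar1 and the lipid receptors Ltb4r1 and Ptafr. They were taken by name from the 55401 genes of an RNA-seq table of MLL-AF9 leukemia cells, and all 10 were found. MLL-AF9 is a fusion oncogene that was introduced together with GFP into mouse bone marrow progenitors. The same aggressive leukemia, passed more than 10 times from mouse to mouse, was transplanted into 3 kinds of host that had not been irradiated, and GFP+ cells were collected from the bone marrow of moribund mice. The hosts were female and 8 to 12 weeks old: WT mice (C57BL/6 J), Rag2-/- mice (C57BL/6J-Rag2em3Lutzy/J), which cannot form mature T and B cells but keep NK cells, and NSG mice, which lack T, B and NK cells. Each host gave 4 libraries. The deficiency lies in the host and not in the leukemia cells, all of which descend from 1 serially transplanted leukemia. NSG mice also differ from both other hosts in strain background, which cannot be told apart here from their lack of NK cells.

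Chemoattractant receptors are membrane receptors that signal mainly through G proteins of the Gi class, and so direct cell movement, adhesion and, for some, degranulation and the oxidative burst. Formyl peptide receptors sense peptides from bacteria and mitochondria. CXCR2 and its ligands draw mature neutrophils out of the bone marrow, while CXCR4 and its ligand CXCL12 hold progenitors, immature neutrophils and leukemia cells there. CCR2 marks classical monocytes and CX3CR1 non-classical monocytes.

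The deposited values are TPM, that is, transcript abundances per length on a common total of 1000000 per library. The table holds no read counts. The lowest TPM values of a library, multiplied by exon length, fell on a regular grid, from which the depth was estimated. In units of 1000000 read pairs it came to 8.01 to 13.6 for WT, 8.68 to 21.4 for Rag2-/- and 9.51 to 16.6 for NSG libraries. On a transcript of 1 kb, 3 read pairs are worth 0.499 to 1.29 TPM at these depths. All 10 receptors reached the limit for being tested, a mean level of 1 TPM or more over the 12 libraries. Fpr1 reached it only through the Rag2-/- libraries, since its mean was 0.806 TPM over the WT and NSG libraries, whereas the other receptors were at 2.02 TPM or more there. Fpr1 was also the only one near the detection limit, with 3 or fewer estimated read pairs in 4 libraries. The hosts were compared on log2(TPM + 1) with limma over all 15026 genes that passed that limit. A gene was called at a Benjamini-Hochberg adjusted p below 0.05 and a log2 fold change beyond 0.5, and all adjusted p-values of single genes below are from this fit unless another test is named. Adding 1 to the TPM makes the fold change of low genes smaller than that of their TPM. In these bulk samples, fewer cells that express a receptor and less of its RNA per cell cannot be told apart.

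In MLL-AF9 cells from Rag2-/- mice, 4 of the 10 receptors were upregulated relative to cells from WT mice, namely Fpr1, Fpr2, Cxcr2 and Ptafr, and 0 were lower. Of all genes tested, 1.14% were called higher and 0.326% lower in this comparison. Relative to cells from NSG mice, Fpr1 and Fpr2 were upregulated and 0 receptors were lower, where 0.193% of all genes were called higher and 0.02% lower. Both counts include Fpr1, which entered the test only through the Rag2-/- libraries, where it is high. With all genes above 0 TPM in any library fitted by limma, Fpr1 kept its call against WT (adjusted p = 0.0147) and lost that against NSG. Between cells from NSG and WT mice 0 receptors were called, as were 0 of all genes, while 2 receptors and 1377 of all genes had an unadjusted p under 0.05 in limma. With limma-voom on estimated reads, 0 receptors and 1 of all genes were called between NSG and WT. The Rag2-/- libraries enter both comparisons that yielded calls, so these are not independent of each other. The median log2 fold change of the 10 receptors was 0.50 against WT and 0.32 against NSG, beside medians of 0.024 and 0.013 over all genes tested.

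**Figure D1:**
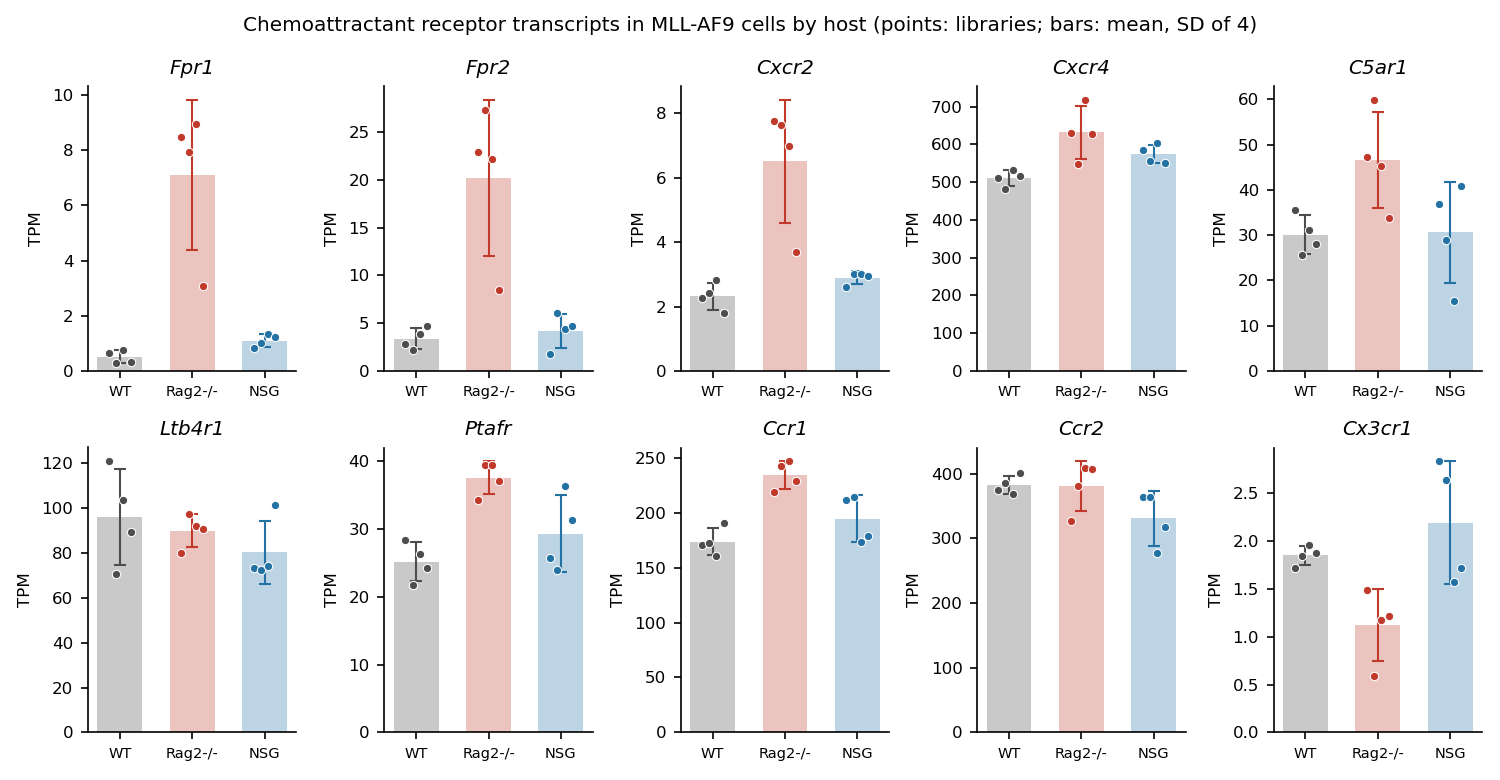
Transcript level in TPM (vertical axes, each starting at 0) of the 10 receptors by host of the MLL-AF9 cells. Points are the 4 libraries of a host from replicate 1 on the left to replicate 4 on the right, bars are means and error bars are SD (n = 4). Fpr1, Fpr2 and Cxcr2 stand higher in the Rag2-/- group, where replicate 4 is the lowest library for all 3, while Cxcr4, Ccr2 and Ccr1 are abundant in every host.

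**Figure D2:**
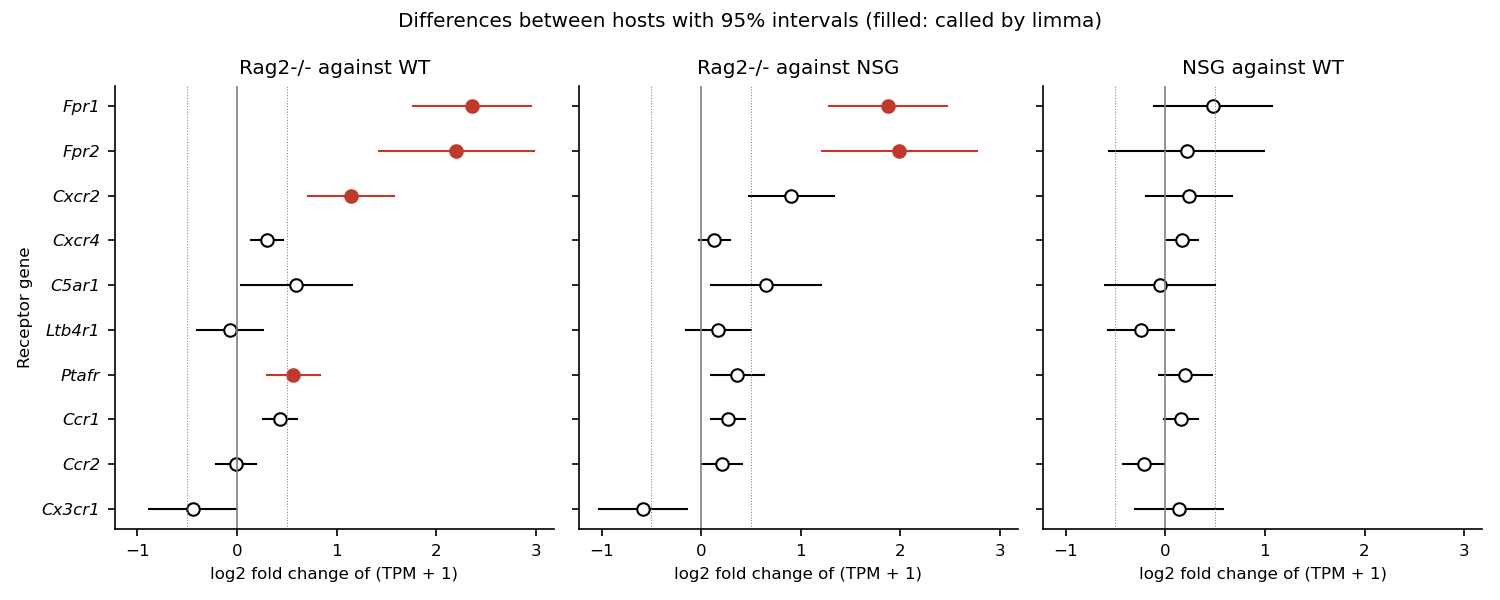
Log2 fold change of (TPM + 1) for each receptor (horizontal axes) with its 95% interval from limma, 1 panel per comparison of hosts. Filled red points were called, and dotted lines mark the limit of 0.5 in either direction. Fpr1 and Fpr2 were called in both comparisons that involve Rag2-/- mice, Cxcr2 and Ptafr against WT, and no receptor between NSG and WT.

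The sequences around the transcription starts of the 4 receptors called against WT are shown because these 4 moved in the same comparison. Windows from 250 bases before to 50 bases after the annotated start were taken from RefSeq on GRCm38.p6, where all 10 receptors had an entry with 1 start. Each is written from 5′ to 3′ on the strand of the gene. Capitals mark matches to TTNNGNAA, the form bound by C/EBP factors, or to GAGGAA, the core bound by PU.1, on either strand, so that a match on the opposite strand reads TTNCNNAA or TTCCTC. The capitals of both motifs do not overlap in these 4 windows.
Fpr1, chr17:17883890-17884189, minus strand: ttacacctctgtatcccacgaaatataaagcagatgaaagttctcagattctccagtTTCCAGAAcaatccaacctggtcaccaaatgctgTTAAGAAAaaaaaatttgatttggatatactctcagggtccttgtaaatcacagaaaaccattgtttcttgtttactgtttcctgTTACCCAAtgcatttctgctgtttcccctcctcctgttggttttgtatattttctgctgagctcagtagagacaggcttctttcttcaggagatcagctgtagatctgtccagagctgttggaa
Fpr2, chr17:17887574-17887873, plus strand: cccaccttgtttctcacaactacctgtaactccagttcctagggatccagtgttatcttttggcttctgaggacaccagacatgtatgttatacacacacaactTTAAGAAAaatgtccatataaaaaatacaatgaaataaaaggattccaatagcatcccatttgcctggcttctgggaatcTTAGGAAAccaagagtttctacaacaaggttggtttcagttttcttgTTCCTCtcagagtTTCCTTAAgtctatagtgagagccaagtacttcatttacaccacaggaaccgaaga
Cxcr2, chr1:74153744-74154043, plus strand: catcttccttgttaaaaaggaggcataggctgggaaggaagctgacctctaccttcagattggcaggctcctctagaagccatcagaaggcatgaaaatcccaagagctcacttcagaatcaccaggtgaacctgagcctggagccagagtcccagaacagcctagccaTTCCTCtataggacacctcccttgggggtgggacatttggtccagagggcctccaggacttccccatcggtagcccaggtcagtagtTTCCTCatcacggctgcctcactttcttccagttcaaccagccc
Ptafr, chr4:132563817-132564116, plus strand: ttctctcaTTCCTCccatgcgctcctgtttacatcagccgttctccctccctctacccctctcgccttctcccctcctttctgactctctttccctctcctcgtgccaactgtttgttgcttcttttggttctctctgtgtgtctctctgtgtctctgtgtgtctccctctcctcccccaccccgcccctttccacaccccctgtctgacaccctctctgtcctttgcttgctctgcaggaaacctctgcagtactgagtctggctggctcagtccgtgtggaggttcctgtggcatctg

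The windows of Fpr1 and Fpr2 each held 3 matches to TTNNGNAA, and in both of them 1 match reads TTAAGAAA, starting 159 bases before the start of Fpr1 and 146 bases before that of Fpr2. Of the 32851 windows of the same length in the RefSeq table, 40.7% held at least 1 such match and 4.29% held 3 or more. The Cxcr2 window held 2 matches to GAGGAA and none to TTNNGNAA, and 28.3% of all windows held at least 1 GAGGAA. The Ptafr window held 1 GAGGAA, starting 242 bases before the start. Over the 10 receptors, 6 windows held TTNNGNAA and 5 held GAGGAA. In the window of Ccr1 the motifs overlapped, and that of Cx3cr1 held neither. A match describes the letters only and not a site that was bound in these cells.

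Fpr1 (ENSMUSG00000045551) lies on the minus strand of chromosome 17, 17876471 to 17883940 in GRCm38, and encodes the high-affinity receptor for formylated peptides. Its level in the WT libraries, from replicate 1 to 4, was 0.651, 0.299, 0.773 and 0.319 TPM, and in the NSG libraries 0.815, 1.01, 1.33 and 1.24 TPM. In the Rag2-/- libraries it was 8.49, 7.95, 8.95 and 3.08 TPM. Each Rag2-/- library lay above every library of the other hosts, with replicate 4 lowest among the Rag2-/- libraries, and each NSG library lay above every WT library.

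The WT values of Fpr1 rest on 2, 1, 4 and 1 estimated read pairs, the NSG values on 3, 4, 5 and 8, and the Rag2-/- values on 24.5 to 56.1. Fpr1 exceeded WT by a log2 fold change of 2.36 (SE 0.27, adjusted p = 0.00313) and NSG by 1.87 (SE 0.27, adjusted p = 0.0250). Because so few reads stand behind the WT group, the ratio was also taken from the summed read pairs, 143 in Rag2-/- against 8 in WT libraries, which gave a 11.8-fold higher rate in Rag2-/- (95% exact interval 5.81 to 27.8). Against the 20 read pairs of NSG libraries the rate was 5.64-fold higher (3.52 to 9.51). These intervals cover counting error only and rest on estimated reads. For NSG against WT the same ratio was 2.09 (0.880 to 5.48), and the log2 fold change was 0.48 (95% interval -0.11 to 1.07, adjusted p = 0.608), so a difference between these hosts was not detectable at this depth. The call against WT held with each of the 12 libraries left out in turn (adjusted p at most 0.0238). The call against NSG was lost without Rag2-/- replicate 1, 2 or 3 or NSG replicate 1, 2 or 4, with adjusted p up to 0.115, and in 3 of 9 other settings (adjusted p up to 0.0794).

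Fpr2 (ENSMUSG00000052270) is the neighbour of Fpr1 on the plus strand, at 17887824 to 17893952 of chromosome 17, and encodes a promiscuous receptor for formyl peptides, annexin A1 and the cathelicidin peptide. The starts of both genes are 3884 bases apart and point away from each other. Its exons share 48 bases with those of Fpr3, which was listed at 0 in all 12 libraries, and how reads that match several members of this family were assigned is not given in the sources used here. Fpr2 was at 2.83, 2.14, 3.85 and 4.73 TPM in WT, at 1.80, 6.08, 4.36 and 4.69 TPM in NSG and at 22.9, 27.4, 22.2 and 8.47 TPM in Rag2-/- libraries. Every Rag2-/- library again exceeded every other library, replicate 4 by the least, whereas WT and NSG libraries overlapped.

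Fpr2 exceeded WT by a log2 fold change of 2.20 (SE 0.36, adjusted p = 0.0128) and NSG by 1.99 (SE 0.36, adjusted p = 0.0473). The call against WT was lost without WT replicate 2, Rag2-/- replicate 2 or Rag2-/- replicate 3, with adjusted p up to 0.0533 and log2 fold changes from 2.02 to 2.55 over all 12 omissions. The call against NSG was lost in 10 of the 12 omissions (adjusted p up to 0.175), all except those of Rag2-/- replicate 4 and NSG replicate 3, and in 8 of 9 other settings (adjusted p up to 0.124). For NSG against WT the log2 fold change was 0.21 (95% interval -0.56 to 0.99).

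Cxcr2 (ENSMUSG00000026180, chromosome 1, 74153989 to 74161246, plus strand), the receptor for neutrophil-attracting chemokines, was at 2.26, 2.41, 2.81 and 1.80 TPM in WT libraries. It was at 7.77, 7.62, 6.97 and 3.68 TPM in Rag2-/- and at 2.60, 3.02, 3.01 and 2.94 TPM in NSG libraries. The Rag2-/- libraries stood above all others without overlap, with replicate 4 close to the highest NSG library, while the WT and NSG libraries overlapped. Relative to WT the log2 fold change reached 1.14 (SE 0.20, adjusted p = 0.0154). This call was lost without the same 3 libraries as that of Fpr2, with adjusted p up to 0.0628. Against NSG the log2 fold change was 0.91 (95% interval 0.48 to 1.34, adjusted p = 0.0818), which was not called with all libraries and was called without Rag2-/- replicate 4 (adjusted p = 0.00807).

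Cxcr4 (ENSMUSG00000045382, chromosome 1, 128588199 to 128592293, minus strand) was the most abundant receptor in every library. It was at 511, 482, 532 and 518 TPM in WT, 631, 549, 719 and 629 TPM in Rag2-/- and 585, 557, 604 and 552 TPM in NSG libraries. Both other hosts lay above WT without overlap, and Rag2-/- and NSG overlapped. Relative to WT, Cxcr4 differed by a log2 fold change of 0.30 (SE 0.072, adjusted p = 0.0468), past the p threshold but within the limit of 0.5 on the fold change, so it was not called. Without that limit, 6 receptors and 2.06% of all genes passed the p threshold upwards in this comparison. Against NSG the difference was 0.13 (95% interval -0.025 to 0.29).

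The balance of both CXC receptors was also compared within each library. The log2 ratio of Cxcr2 to Cxcr4, each with 1 TPM added, was -7.28 ± 0.19 (SD, n = 4) for WT, -6.43 ± 0.47 for Rag2-/- and -7.21 ± 0.11 for NSG. It was higher in Rag2-/- than in WT by 0.84 and than in NSG by 0.77, in both cases without overlap (two-sided exact permutation test, p = 0.0286, the smallest that 4 against 4 libraries allow, and 0.0429 adjusted over 6 tests). The lowest Rag2-/- value was that of replicate 4 at -7.07, against -7.12 in the highest NSG library. NSG and WT differed by 0.067 (exact p = 0.600). The ratio depends on the constant added to the low Cxcr2 values, and with 0.1 in place of 1 TPM the differences of Rag2-/- from WT and NSG were 1.11 and 0.96. With 1 library left out the difference from WT ranged from 0.70 to 1.05, and the adjusted p rose to 0.0857 without any 1 of the WT libraries, as did that of the difference from NSG without any 1 of the NSG libraries. The groups still did not overlap in these omissions. With any 1 Rag2-/- library left out, the adjusted p of both differences stayed below 0.05.

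**Figure D3:**
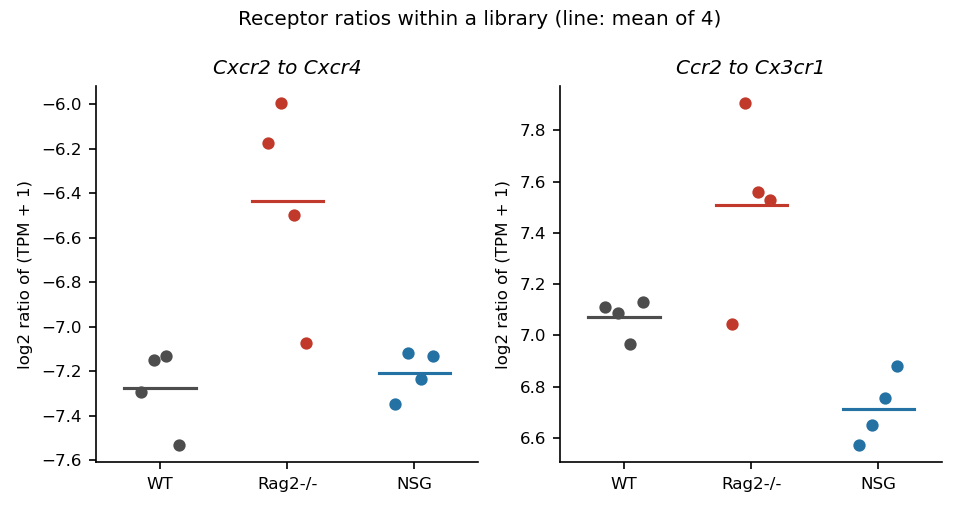
Log2 ratio of (TPM + 1) of Cxcr2 to Cxcr4 (left) and of Ccr2 to Cx3cr1 (right) in each library of the 3 hosts. Points are libraries from replicate 1 on the left to replicate 4 on the right, and lines are means of 4. For Cxcr2 to Cxcr4 the 4 Rag2-/- libraries lie between -7.07 and -5.99, above all WT and NSG libraries. For Ccr2 to Cx3cr1 the NSG libraries lie lowest, between 6.57 and 6.88.

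Ptafr (ENSMUSG00000056529, chromosome 4, 132564067 to 132582683, plus strand), the receptor for platelet-activating factor, was at 28.4, 21.7, 26.4 and 24.2 TPM in WT libraries. It reached 34.3, 39.5, 39.5 and 37.1 TPM in Rag2-/- libraries and 25.8, 23.9, 36.4 and 31.3 TPM in NSG libraries. The Rag2-/- libraries lay above all WT libraries, here with replicate 1 lowest, and NSG replicate 3 reached into their range. Ptafr exceeded WT by a log2 fold change of 0.56 (SE 0.12, adjusted p = 0.0338), close to the limit of 0.5. Against NSG the difference was 0.36 (95% interval 0.097 to 0.63, adjusted p = 0.224). The call against WT was lost in 7 of the 12 omissions of a library, those of WT replicate 2, 3 or 4 and of each Rag2-/- library, with log2 fold changes from 0.50 to 0.62 and adjusted p up to 0.112, and in 2 of 9 other settings (adjusted p up to 0.0666).

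Ltb4r1 (ENSMUSG00000046908, chromosome 14, 55765962 to 55768494, plus strand) encodes the high-affinity receptor for leukotriene B4, a lipid attractant of neutrophils. It was at 70.5 to 121 TPM in WT, 79.9 to 97.4 TPM in Rag2-/- and 72.4 to 101 TPM in NSG libraries, and the 3 hosts overlapped. For Rag2-/- the log2 fold change was -0.071 (95% interval -0.40 to 0.26) against WT and 0.17 (-0.16 to 0.50) against NSG.

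C5ar1 (ENSMUSG00000049130, chromosome 7, 16246743 to 16259540, minus strand), the receptor for the complement fragment C5a, was at 35.6, 25.6, 31.2 and 28.0 TPM in WT libraries. It was at 47.3, 59.9, 45.2 and 33.8 TPM in Rag2-/- and at 37.0, 29.0, 15.5 and 40.8 TPM in NSG libraries. Its mean was highest in Rag2-/-, but replicate 4 fell among the WT libraries. Its log2 fold change was 0.60 (95% interval 0.044 to 1.15, adjusted p = 0.207) against WT and 0.65 (0.095 to 1.20, adjusted p = 0.306) against NSG, and neither was called. The latter was 0.36 without NSG replicate 3, the library at 15.5 TPM.

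Ccr1 (ENSMUSG00000025804, chromosome 9, 123962124 to 123968692, minus strand), a receptor for inflammatory CC chemokines such as CCL3 and CCL9, was at 171, 172, 161 and 190.3 TPM in WT libraries. It was at 219, 243, 247 and 229 TPM in Rag2-/- and at 212, 214, 174 and 179 TPM in NSG libraries. All Rag2-/- libraries lay above all WT and all NSG libraries. Relative to WT, Ccr1 differed by a log2 fold change of 0.43 (SE 0.078, adjusted p = 0.0183), past the p threshold but within the limit on the fold change. Against NSG it was 0.27 (SE 0.078, adjusted p = 0.158).

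Ccr2 (ENSMUSG00000049103, chromosome 9, 124101950 to 124113557, plus strand) starts 133258 bases from Ccr1 and encodes the receptor through which CCL2 recruits monocytes. It was at 375, 386, 369 and 402 TPM in WT, 328, 381, 409.5 and 408 TPM in Rag2-/- and 364, 365, 277 and 318 TPM in NSG libraries. Rag2-/- overlapped with both other hosts, and the 4 NSG libraries lay below the 4 WT libraries. Between Rag2-/- and WT the log2 fold change was -0.0099 (95% interval -0.21 to 0.19). For NSG against WT it was -0.22 (95% interval -0.42 to -0.016, adjusted p = 0.525).

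Cx3cr1 (ENSMUSG00000052336, chromosome 9, 119901616 to 120069879, minus strand), the fractalkine receptor, was the only receptor whose 4 Rag2-/- libraries lay below all WT and NSG libraries. It was at 1.72, 1.85, 1.96 and 1.88 TPM in WT, 1.49, 0.592, 1.18 and 1.22 TPM in Rag2-/- and 2.83, 2.64, 1.57 and 1.71 TPM in NSG libraries. These levels rest on 8.5 to 37.5 estimated read pairs a library. In Rag2-/- the log2 fold change was -0.45 (95% interval -0.89 to -0.0063, adjusted p = 0.232) against WT and -0.59 (-1.03 to -0.15, adjusted p = 0.236) against NSG, and neither was called. Exons of Cx3cr1 share 78 bases with an antisense gene, Gm33858, and whether the counting used strand is not given in the sources used here.

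The log2 ratio of Ccr2 to Cx3cr1, each with 1 TPM added, was 7.07 ± 0.074 (SD, n = 4) for WT, 7.51 ± 0.35 for Rag2-/- and 6.71 ± 0.13 for NSG. Rag2-/- exceeded NSG by 0.79 and NSG fell below WT by a difference of -0.36, both without overlap (two-sided exact permutation test, p = 0.0286, adjusted p = 0.0429 over 6 tests). Rag2-/- and WT differed by 0.44 (exact p = 0.114), with Rag2-/- replicate 1 at 7.04 among the WT libraries, and this difference was 0.59 without that library (adjusted exact p = 0.0343). With 0.1 TPM added in place of 1, all 4 Rag2-/- libraries included, the difference from WT was 0.73 (adjusted exact p = 0.0343), and that from NSG was 1.14. The adjusted p rose to at most 0.0857 for Rag2-/- against NSG when any 1 NSG library was left out, and for NSG against WT when any 1 library of either host was left out. Here too the groups still did not overlap.

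Counted over all receptors, the 4 Rag2-/- libraries lay wholly above the 4 WT libraries for 6 receptors (Fpr1, Fpr2, Cxcr2, Cxcr4, Ptafr and Ccr1) and wholly below for Cx3cr1. Of all genes tested, 10.2% were parted upwards and 6.72% downwards in this comparison. Against NSG, 4 receptors (Fpr1, Fpr2, Cxcr2 and Ccr1) were parted upwards and Cx3cr1 downwards, beside 4.34% and 2.25% of all genes. Between NSG and WT, Fpr1 and Cxcr4 were parted upwards and Ccr2 downwards, beside 2.21% and 2.38% of all genes. A two-sided exact permutation test of each receptor, 4 libraries against 4, cannot give less than p = 0.0286, and 0 of the 30 tests passed 0.05 after Benjamini-Hochberg adjustment, for which the smallest value was 0.0571.

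The order of levels was alike in the 3 hosts among the abundant receptors. Cxcr4 was followed by Ccr2, Ccr1 and Ltb4r1, each without overlap with its neighbour in any host, and then by C5ar1 and Ptafr, whose ranges overlapped with each other. Cxcr4, Ccr2 and Ccr1 together made up 83.0% to 89.3% of the summed TPM of the 10 receptors in a library. The order differed at the low end. In WT and NSG libraries Fpr2, Cxcr2 and Cx3cr1 followed with overlapping neighbours, and Fpr1 was lowest without overlap with Cx3cr1. In Rag2-/- libraries Fpr2, Fpr1 and Cxcr2 followed with overlapping neighbours, and Cx3cr1 was lowest.

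Fpr1, Fpr2 and Cxcr2 together took 0.416% to 0.603% of the summed receptor TPM in WT, 0.400% to 0.794% in NSG and 1.06% to 3.04% in Rag2-/- libraries. The receptors that were upregulated most strongly were thus a small part of the receptor transcripts in every host. The sum over the 10 receptors was 1165 to 1260.2 TPM in WT, 1191 to 1305 TPM in NSG and 1380.1 to 1591 TPM in Rag2-/- libraries.

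The cells that express Fpr1, Fpr2 and Cxcr2 at high levels in bone marrow include mature neutrophils, so the markers of other cells that a GFP+ sort could hold were read beside them. The 16 mature neutrophil markers (among them S100a8, S100a9, Ngp, Ltf, Camp, Retnlg and Ly6g), none of which was at 0 in all libraries, summed to 722 to 1003 TPM in WT, 788 to 969 TPM in NSG and 1275 to 2824 TPM in Rag2-/- libraries. Of these 16 markers, 11 were called higher in the Rag2-/- libraries than in WT, and 8 were called against NSG, beside 1.14% and 0.193% of all genes tested. Lcn2, Cd177 and Stfa2l1 were called against WT but not against NSG (adjusted p = 0.0778, 0.0835 and 0.104). Not called against WT were Ly6g (log2 fold change 0.69), Il1r2 (0.55), Padi4 (0.042), Csf3r (-0.050) and Cebpe (-0.28). Csf3r had means of 242 TPM in WT, 235 TPM in Rag2-/- and 219 TPM in NSG libraries. Cebpe had means of 173, 142 and 171 TPM in the same order. The marker sum was 2824, 2801 and 2823 TPM in Rag2-/- replicates 1, 2 and 3 and 1275 TPM in replicate 4. The library lowest for Fpr1, Fpr2 and Cxcr2 among the Rag2-/- libraries was thus also lowest for the sum of these markers. Their part in the receptor differences was not tested. Without replicate 4 of Rag2-/-, 3 receptors were called against WT and the same number against NSG, in both cases Fpr1, Fpr2 and Cxcr2. Ptafr lost its call against WT with this omission. Of all genes, 1.18% were then called higher against WT, beside 1.14% with all libraries. Against NSG the share was 0.499%, beside 0.193% with all libraries.

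**Figure D4:**
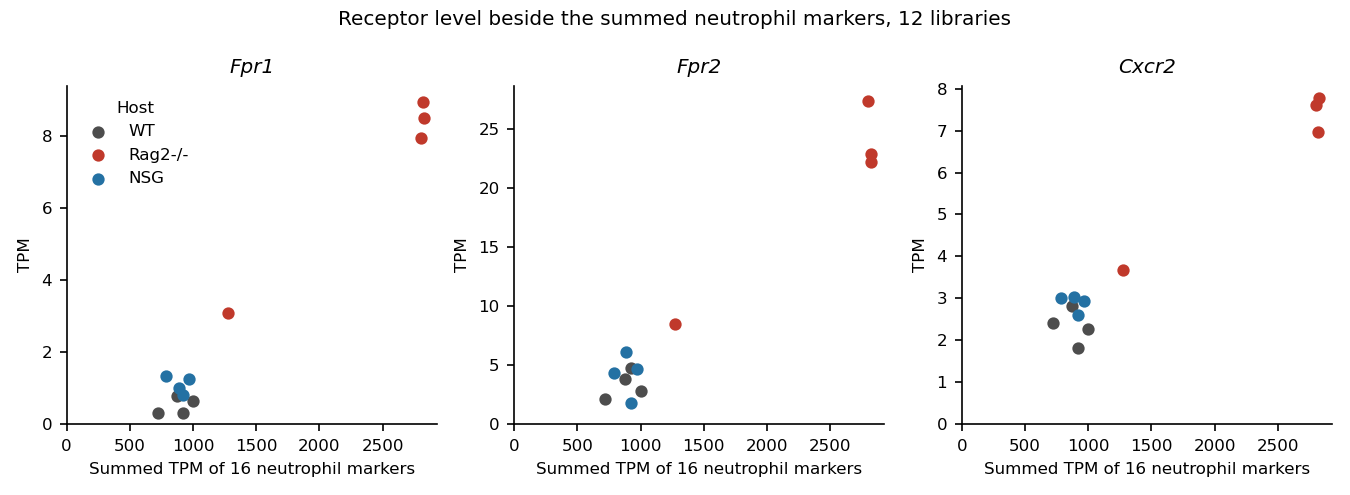
Level of Fpr1, Fpr2 and Cxcr2 in TPM (vertical axes) beside the summed TPM of 16 mature neutrophil markers (horizontal axes) in the 12 libraries, coloured by host. Rag2-/- replicate 4, with a marker sum of 1275 TPM, lies between the other 3 Rag2-/- libraries, at 2801 to 2824 TPM, and the 8 WT and NSG libraries, at 722 to 1003 TPM.

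The 11 monocyte markers other than Ccr2 summed to 4379.5 to 4735 TPM in WT, 3518 to 4120.3 TPM in Rag2-/- and 3392 to 4692 TPM in NSG libraries, so that Rag2-/- lay below WT without overlap, with Fn1 called higher and Ly6c2 lower in Rag2-/- than in WT. Most of this sum was Plac8, with means of 3018, 2487 and 2915 TPM in the same order, which was not called. Of the other tested genes not called against WT, F13a1, Csf1r, Ms4a4c and Klf4 had log2 fold changes below 0. Those of Cd14 (0.037), Nr4a1 (0.54) and Treml4 (1.00) were above 0. Fn1 entered the test only through the Rag2-/- libraries, with means of 0.310 TPM in WT, 4.61 TPM in Rag2-/- and 0.432 TPM in NSG libraries. The 12 macrophage markers summed to 91.0 to 99.8 TPM in WT, 101 to 117 TPM in Rag2-/- and 56.2 to 113 TPM in NSG libraries, with C1qc called higher in Rag2-/- than in WT. Log2 fold changes against WT were 1.53 for C1qa (adjusted p = 0.0894), 1.31 for C1qb (adjusted p = 0.0506), 0.42 for Cd5l, 0.16 for Vcam1 and -0.065 for Adgre1. None of these was called. Of the 12 markers, 3 lay wholly above WT in Rag2-/- libraries and 6 wholly above NSG, beside 10.2% and 4.34% of all genes tested. The 9 B and plasma cell markers summed to 181 to 233 TPM in WT, 140 to 211 TPM in Rag2-/- and 125 to 222 TPM in NSG libraries. Igkc was called lower in Rag2-/- than in WT. The 8 erythroid markers summed to 3.73 to 5.15 TPM in WT, 5.78 to 11.2 TPM in Rag2-/- and 3.38 to 12.6 TPM in NSG libraries. Most of the B and plasma cell sum was Ighm, with means of 183 TPM in WT, 164 TPM in Rag2-/- and 177 TPM in NSG libraries. In the same order, Igkc had means of 9.38, 0.0738 and 0.169 TPM and Jchain of 0.798, 0.0165 and 0.0357 TPM. Igkc entered the test only through the WT libraries, where it is high. Of the other B cell genes, Ms4a1 was at 0 in all 12 libraries and Cd79a was at 0.421 to 3.09 TPM. Of the 14 T and NK cell markers, Cd3e and Trac were at 0 in all 12 libraries, while Cd3d was at 0 to 0.595 TPM and Cd4 at 0 to 0.522 TPM. This list summed to 10.97 to 14.8 TPM in WT, 9.20 to 16.1 TPM in Rag2-/- and 9.15 to 14.7 TPM in NSG libraries, with Lck at 3.07 to 6.75 TPM and Nkg7 at 1.16 to 7.43 TPM. In WT, Rag2-/- and NSG libraries the means were 5.73, 5.09 and 6.38 TPM for Lck and 5.93, 3.49 and 5.19 TPM for Nkg7. Their log2 fold changes in Rag2-/- against WT were -0.16 and -0.72, and neither was called. Another 2 genes of this list, both with a mean under 1 TPM, lay above WT in all Rag2-/- libraries. Ncr1, an NK cell receptor, was at 0.108 to 0.531 TPM in Rag2-/- and at 0 in all WT and NSG libraries, and Gzma, a granule protease of cytotoxic cells, was at 0.624 to 2.39 TPM in Rag2-/-, at 0 in all WT and at 0 to 1.67 TPM in NSG libraries. The Ncr1 values lie below what 3 read pairs on 1 kb are worth in the same Rag2-/- libraries, 0.499 to 1.22 TPM. The part of these markers in the receptor differences was not tested. Of the 10 markers of MLL-AF9 leukemia, Hoxa9 had means of 208 TPM in WT, 224 TPM in Rag2-/- and 208 TPM in NSG libraries, and Meis1 of 55.2, 60.5 and 56.9 TPM. The list summed to 11547 to 12973 TPM in WT, 10435 to 12563 TPM in Rag2-/- and 10330.4 to 15389 TPM in NSG libraries, most of it Elane, with means of 10871.5, 9789 and 11622 TPM, and Mpo was called lower in Rag2-/- than in WT. In the same comparison the log2 fold changes of Kit (-0.42), Cd34 (-0.26), Flt3 (-0.19) and Elane (-0.15) were below 0. Those of Itgam (0.36), Meis1 (0.13), Hoxa10 (0.10), Hoxa9 (0.098) and Myb (0.021) were above 0. Apart from Mpo, none of the list was called against WT.

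The genes whose log2(TPM + 1) followed each called receptor most closely over the 12 libraries included the neutrophil gene S100a8 for Fpr1, Fpr2 and Cxcr2. For Fpr1 they were S100a8 (Pearson r = 0.992), Cxcr2 (0.981) and Mmp9 (0.978). For Fpr2 they were S100a8 (0.962), Sirpb1c (0.961) and Ngp (0.958), and for Cxcr2 they were Fpr1 (0.981), S100a8 (0.972) and Fn1 (0.970). For Ptafr they were Cd300lf (0.957), Evi5 (0.956) and Stk10 (0.948), none of which is on the neutrophil list. These correlations are descriptions over 12 libraries that share the split into 3 hosts, and no p is attached to them. Among the genes named, Fn1 and Sirpb1c had means under 1 TPM in WT and in NSG libraries. Both reached the limit for being tested only through the Rag2-/- libraries.

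The rest of the chemoattractant pathway was read from 5 lists with 106 genes, of which 69 were tested. In cells from Rag2-/- mice 5 of the 69 were higher than in cells from WT mice and 0 lower, and their median log2 fold change was 0.14, beside 1.14% called higher and a median of 0.024 over all genes tested. Camp, Alox5, Anxa1, Fgr and Prex1 were these 5. Against NSG mice 1 was higher (Camp) and 0 lower, with a median of 0.15, and between NSG and WT mice 0 were called.

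Of 18 further chemokine receptors 6 were tested, and of 14 further chemoattractant receptors 5, the rest having a mean under 1 TPM. None of those tested, such as Cxcr3, Ccrl2 and C5ar2, was called in any comparison. Cxcr1, the relative of Cxcr2, was at most 0.274 TPM and was listed at 0 in every WT library. C5ar2, the second receptor for C5a, was at 3.80 to 10.4 TPM, with a log2 fold change of 0.50 (adjusted p = 0.220) in Rag2-/- against WT.

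Among 15 tested ligands and enzymes that make them, 3 were higher in Rag2-/- than in WT. Camp, the precursor of the cathelicidin peptide that binds FPR2, was at 7.96, 3.92, 4.39 and 10.0 TPM in WT and at 96.3, 64.8, 70.9 and 27.4 TPM in Rag2-/- libraries. It was at 7.36, 9.28, 5.59 and 15.3 TPM in NSG libraries, and the Rag2-/- libraries lay above both other hosts, with a log2 fold change of 3.07 (SE 0.39, adjusted p = 0.00479) against WT. Against NSG it was 2.62 (adjusted p = 0.0256), a call that was lost without Rag2-/- replicate 1, 2 or 3 or NSG replicate 1 or 2. Camp also belongs to the neutrophil list above. Alox5, which makes the precursor of leukotriene B4, had a log2 fold change of 1.45 (SE 0.21, adjusted p = 0.00680) against WT, and Anxa1, a ligand of FPR2 that dampens inflammation, of 0.91 (SE 0.13, adjusted p = 0.00680). Against NSG these were 1.10 (adjusted p = 0.0543) and 0.66 (adjusted p = 0.0609), short of the threshold. Alox5ap and Lta4h, the partners of Alox5 in leukotriene B4 synthesis, had log2 fold changes of 0.19 (adjusted p = 0.115) and 0.031 (adjusted p = 0.893).

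The CCR1 ligands Ccl3 and Ccl9 were abundant in the same cells, at 353 to 585 TPM and 276 to 362 TPM over all libraries, and were not called in any comparison. Ccl6, another CC chemokine, was at 2.65 to 8.41 TPM in WT and 9.50 to 15.0 TPM in Rag2-/- libraries (log2 fold change 1.03, adjusted p = 0.0507). Cxcl12, the ligand of CXCR4, was at most 0.175 TPM, Hc, the gene of complement C5, at most 0.160 TPM, and the CX3CR1 ligand gene Cx3cl1 at most 0.353 TPM.

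Of 30 tested signalling genes, Fgr, a Src family kinase of myeloid cells, rose by 0.86 on the log2 scale (SE 0.19, adjusted p = 0.0356) and Prex1, an exchange factor that activates Rac downstream of these receptors, by 0.54 (SE 0.12, adjusted p = 0.0422) in Rag2-/- against WT. With 1 library left out in turn, the call of Fgr was lost in 6 cases (adjusted p up to 0.121) and that of Prex1 in 7 (up to 0.133), in both among them those of WT replicate 2, 3 or 4 and Rag2-/- replicate 2 or 3. Lyn, Itgb2 and Rac1 passed the p threshold with log2 fold changes of 0.27, 0.35 and 0.25, within the limit. Of 13 tested genes that end receptor signalling, 0 were called, and 2 passed the p threshold within the limit, Arrb2 at 0.30 and Inpp5d at 0.20. All 13 had a log2 fold change above 0 against WT and against NSG, with medians of 0.18 and 0.17. Of all 69 tested pathway genes, 55 were above 0 against WT and 58 against NSG, so this direction is not particular to the genes that end signalling.

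**Figure D5:**
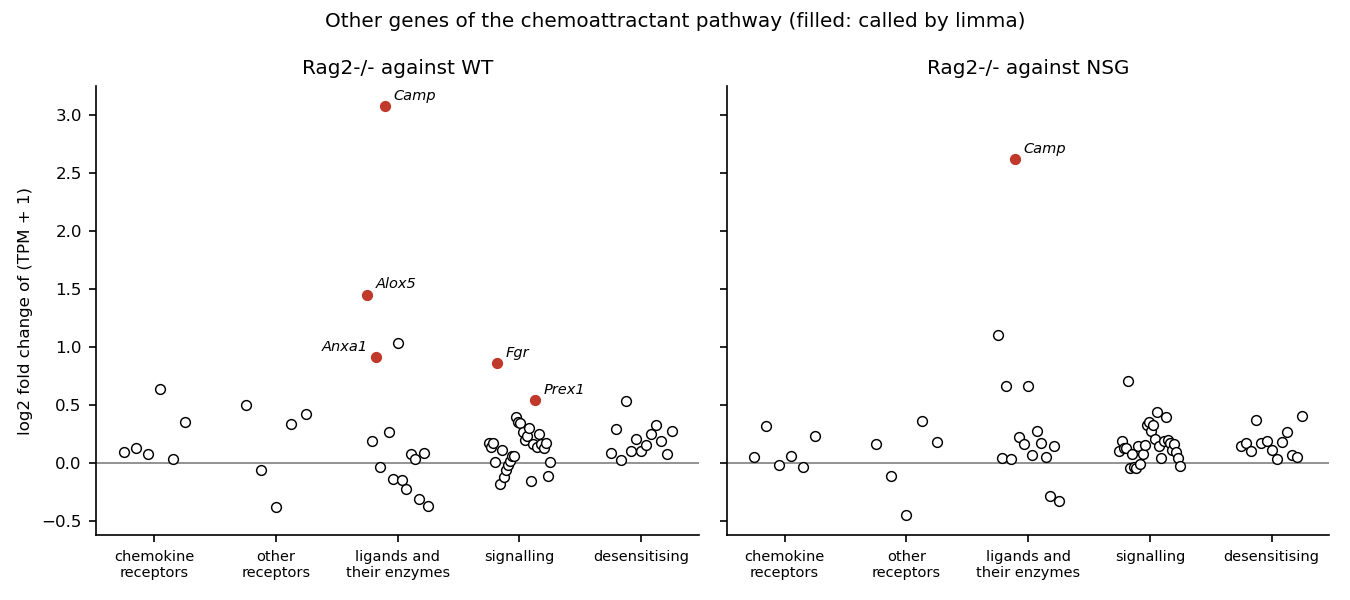
Log2 fold change of (TPM + 1) of the 69 tested pathway genes outside the 10 receptors, by list, for Rag2-/- against WT (left) and against NSG (right). Each point is a gene, and filled red points with a name were called by limma. Camp, Alox5, Anxa1, Fgr and Prex1 were called against WT and Camp alone against NSG, and no receptor outside the 10 was called.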

How the data were processed

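GFP+ MLL-AF9 cells from the bone marrow of 12 mice, 4 of each host, were profiled by RNA-seq of mRNA selected with poly-T beads and read from both ends. Alignment by the authors used HISAT2 and mm10 on Galaxy, and the deposited TPM, 1 column per library, were calculated from their raw counts per gene. The counting tool, the annotation and the use of strand are not given in the sources used here. Replicates were grouped by the labels.

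Symbols and exon lengths of 55141 of the 55401 genes, and gene positions, came from GENCODE M21 (GRCm38, the same genome as mm10). Depth and read pairs were estimated from the spacing of low values times exon length: 98.6% to 98.9% of genes under 20 pairs fell within 0.02 of a multiple of 0.5, and 63.3% to 66.4% on whole numbers. The estimates carry no interval.

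The log2(TPM + 1) of the 15026 genes whose mean reached 1 TPM was fitted by limma 3.58.1 under R 4.3.3, using lmFit and contrasts.fit, then eBayes with its trend option, on the 12 libraries together and with no covariate. Ratios and single receptors were compared by exact permutation tests. Other steps ran in Python 3.11.15 (pandas 2.3.3, numpy 2.4.6, scipy 1.17.1), with plots from matplotlib 3.10.9. Alternatives were a pseudocount of 0.1, other filters, quantile or median-ratio scaling, no trend, 8 libraries alone, a replicate block, no limit on the fold change, each library left out and, chosen after seeing the data, voom on estimated reads.

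All 10 receptors are named. Pathway genes called in any comparison are named, and other pathway genes where a result turns on them. The receptors, lists and tests were chosen with earlier results of these data known. The replicate libraries are labelled as biological replicates.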

Additional observations from a re-analysis of the deposited data

Results flagged for a closer look

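Of 36 groups of 4 libraries tested with Dixon's criterion, which covered the 10 receptors on the log2(TPM + 1) scale and both ratios in each host, 3 held a library far from the others, where chance gives about 1 in 20, or 1.8. In Rag2-/-, replicate 4 was lowest for Fpr1, at 2.03 on the log2 scale with a gap of 0.881 of the group's range, and for Cxcr2, at 2.23 with a gap of 0.848. It was also lowest for the neutrophil marker sum. Without this library the log2 fold changes against WT were the highest of all omissions, 2.66 for Fpr1 and 1.36 for Cxcr2. In NSG, replicate 4 was highest for Ltb4r1, at 6.68 with a gap of 0.924 of the range.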

How the results depend on the processing

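Against WT the count of 4 receptors called fell to 1 without WT replicate 2, Rag2-/- replicate 2 or Rag2-/- replicate 3, and ranged from 1 to 4 over all omissions. Against NSG the 2 receptors called became 1 with a pseudocount of 0.1, quantile or median-ratio scaling, no trend or voom, and 0 with all genes, the 8 libraries alone or the replicate block, and omissions gave 0 to 3. Pathway genes called against WT were 3 without a trend or with the replicate block, 11 without a fold limit, and 3 to 7 over omissions. Against NSG they were 0 with all genes, the 8 libraries alone or the replicate block, 2 without a fold limit, 3 with voom, and 0 to 3 over omissions. Replicate numbers did not pair the libraries (correlations of same-numbered libraries from -0.0906 to 0.0318, 0 of 12 libraries closest to its own number). Over all genes, 172 called higher than in WT became 91 with all genes, 309 without a fold limit and 40 to 245 over omissions, 127 with the replicate block, and 29 higher than in NSG became 4 to 47 over settings and 4 to 77 over omissions.

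The ratio differences with 1 library left out ranged from 0.70 to 1.05 (Cxcr2 to Cxcr4, Rag2-/- against WT), 0.63 to 0.99 (against NSG), -0.018 to 0.12 (NSG against WT, below 0 without WT replicate 4), 0.30 to 0.59 (Ccr2 to Cx3cr1, Rag2-/- against WT), 0.66 to 0.95 (against NSG) and -0.41 to -0.31 (NSG against WT). With a pseudocount of 0.1, Ccr2 to Cx3cr1 in Rag2-/- against WT was 0.73 and passed the threshold. Of the receptors, uncalled values changed sign for Ltb4r1 in Rag2-/- against WT (-0.21 to 0.048 over omissions, above 0 without WT replicate 1), Ccr2 in the same comparison (-0.046 to 0.061, above 0 at 0.013 without WT replicate 4 and at 0.061 without Rag2-/- replicate 1) and C5ar1 in NSG against WT (-0.21 to 0.23, 0.013 with voom, above 0 without WT replicate 1 or NSG replicate 3). The cause was not tested. Depth limits Fpr1 most.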
